A study of Mus musculus with 15 samples.

Results

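Hearts of mouse embryos at E14.5 that carried either of 2 altered Adamts16 alleles were compared with WT hearts, to find gene expression changes common to both alleles. The mutant side held 8 of the 15 RNA sequencing libraries of the series, 4 from Adamts16+/- hearts, which carry 1 knockout allele, and 4 from Adamts16+/H355Q hearts, which carry 1 allele named for a histidine to glutamine change in the protein. The other 7 libraries were from WT hearts. Members of the mutant side were taken from the genotype labels, and each allele counted equally in the mean however its libraries varied. Both mutant genotypes are heterozygous, so every heart in the series keeps at least 1 unaltered copy of Adamts16. Whole hearts were used, so valve tissue is a small part of each sample, and strain, litter and sex are not given in the labels.

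ADAMTS16 is a secreted metalloprotease of the extracellular matrix, and the human enzyme has been reported to cut fibronectin. In the fetal heart, the endocardial cushions are remodelled into valve leaflets whose matrix is layered into collagen, proteoglycan and elastic fibres. Fibroblasts of epicardial and cushion origin make much of this matrix, while cardiomyocytes, endothelium and circulating blood contribute the rest of the RNA of a whole heart. In such bulk samples, fewer cells of a type and less RNA per cell cannot be told apart.

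The deposited values were FPKM, fragments per kilobase of gene scaled to sequencing depth. The implied number of fragments (M, mega) lay between 37.6 and 48 M for Adamts16+/-, between 51.1 and 59 M for Adamts16+/H355Q and between 42 and 56.1 M for WT. The first principal component, 27.6% of the variance, put Adamts16+/- libraries at -18.7 to -11.8 and Adamts16+/H355Q libraries at 8.5 to 23.1, with WT libraries 1 to 4 at -19.6 to -12.2 and WT libraries 5 to 7 at 8.0 to 36.1. Each allele thus lay beside a different subset of WT along this axis, and no label names a batch. The female gene Xist and the Y-linked gene Ddx3y were both above 1 FPKM in 9 of the 15 libraries, so these libraries may be pools of embryos of both sexes, and n counts libraries, not embryos. The labels do not say whether libraries came from separate embryos or litters, so the p-values reflect variation among libraries, which may be technical. Cardiomyocyte markers were present in every library, with a mean log2 level of 7.42 to 7.64 in Adamts16+/-, 7.43 to 7.70 in Adamts16+/H355Q and 7.34 to 7.77 in WT.

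Adamts16 itself, on chromosome 13 from 70727802 to 70841811 in GRCm38, was expressed at a very low level. It was at 0.0897, 0.235, 0.0635 and 0.0747 FPKM in Adamts16+/- libraries 1 to 4. Adamts16+/H355Q libraries 1 to 4 held 0.0677, 0.123, 0.125 and 0.101 FPKM. WT libraries held 0.0324 to 0.235 FPKM (median 0.0647). The 3 groups overlapped. The log2 difference of both alleles together from WT was 0.01 (95% limits -0.15 to 0.18; two-sided exact permutation test over 6435 relabelings, p = 0.859). Its sign depended on single libraries: it was -0.03 without Adamts16+/- library 2 and lay between -0.02 and -0.00 without each of WT libraries 1 to 4. A level this low does not check the labels of either mutant genotype.

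Of 15172 genes whose mean FPKM was 0.5 or more, 98 passed limma's test of both alleles together against WT at an adjusted p under 0.05 (Benjamini-Hochberg), which is 0.646% of the genes tested. There were 42 higher (0.277%) and 56 lower (0.369%) in the mutants. The changes were modest, with a median absolute log2 difference of 0.47 among the called genes and a median of 0.02 over all genes tested. At 2-fold or more, 9 genes were higher and 2 lower, the lower ones being the sarcomere gene Myom2 and the prostaglandin synthase gene Ptgds. In 43 genes (0.283%), each of the 8 mutant libraries lay outside the range of the 7 WT libraries, 18 above it (0.119%) and 25 below it (0.165%). Among the 98 called genes, 31 had this property (0.204% of the genes tested), 15 of them higher and 16 lower. With TPM scaling the split of calls was 48 higher and 25 lower. That of the genes with no overlap was then 22 higher and 12 lower.

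The change differed between the alleles in part of these genes. Set against WT on its own, in comparisons that share the 7 WT libraries, Adamts16+/- gave 417 calls (2.75%) and Adamts16+/H355Q gave 57 (0.376%). A gene called for both alleles together was thus not always called for each alone. A direct test of Adamts16+/- minus Adamts16+/H355Q, which uses no WT mean, called 1524 of all genes (10%) and 21 of the 98 (21.4%). In 15 of these 21 the larger change was in Adamts16+/- and in 6 it was in Adamts16+/H355Q. For the other 77 a difference between the alleles was not called, which does not show that the alleles were equal. Over the 98 genes the 95% interval of that difference reached a median of 0.26 log2 units to either side of its estimate. This interval is not adjusted for the number of genes, and larger differences also went uncalled. Examples are Myom2 (-0.61, limma adjusted p = 0.14) and Casq2 (-0.47, limma adjusted p = 0.0674). The direct test does not account for the first principal component, along which the alleles lay apart and WT was split. Here and below, an allele difference cannot be told apart from a difference along that axis.

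**Figure D1:**
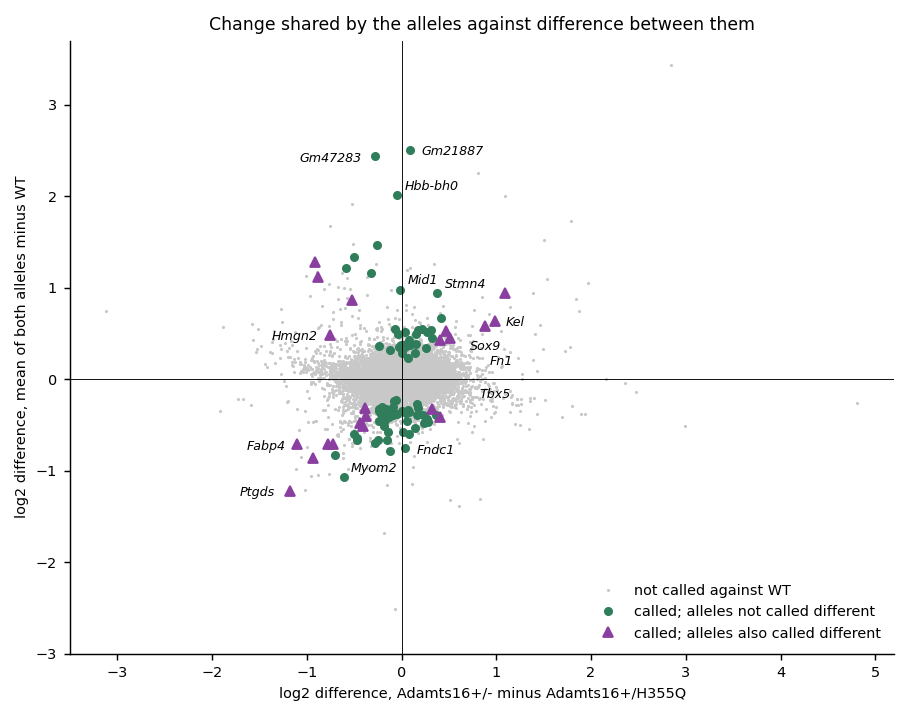
Change common to the alleles against difference between them, for 15172 genes. The vertical axis is the log2 difference of the mean of both alleles from WT and the horizontal axis is the log2 difference of Adamts16+/- from Adamts16+/H355Q. Circles are called genes without a called allele difference (77) and triangles are the 21 with one, Fabp4 and Ptgds far left and Kel far right. The 2 kinds overlap along the horizontal axis: the circle Gpihbp1 lies at -0.70 and the triangle Slc6a9 at 0.47.

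The count of calls rested on the libraries used. With 1 library left out at a time it was 26 without Adamts16+/H355Q library 3, 34 without WT library 5, 41 without Adamts16+/H355Q library 4, 42 without WT library 6, 44 and 46 without Adamts16+/- libraries 1 and 4, and 49 without WT library 2. It was 157 and 226 without Adamts16+/H355Q libraries 1 and 2, and 289 without WT library 7. Without Adamts16+/- libraries 2 and 3 it was 58 and 62. With WT libraries 5 to 7 left out, 1335 genes were called, including 88 of the 98, and with WT libraries 1 to 4 left out, 732 were called, including 71 of the 98. When the mean level of the erythroid marker list was added as a covariate, 2 genes passed, G530011O06Rik (adjusted p = 0.0153) and Gm21748 (adjusted p = 0.0229), while the 98 genes kept their signs and their median absolute log2 difference was 0.41.

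**Figure D2:**
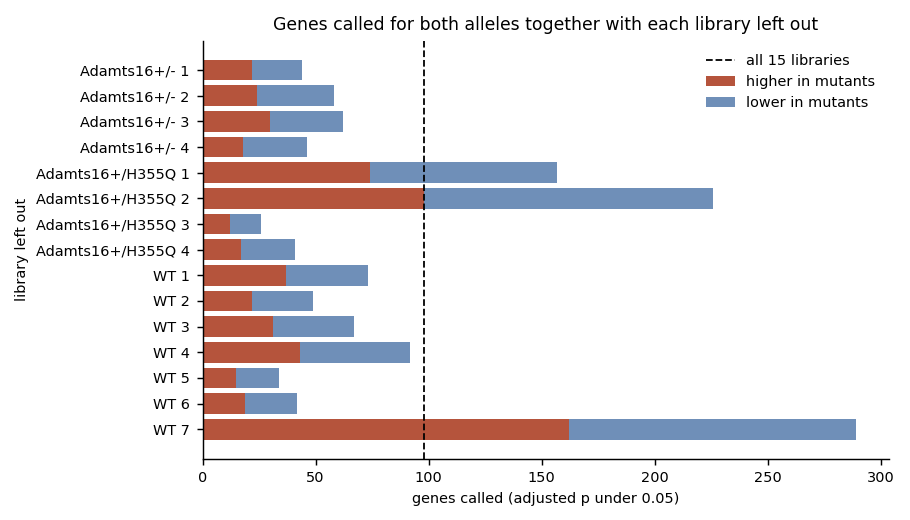
Number of genes called for both alleles together against WT (horizontal axis) with each library left out in turn (vertical axis), split into genes higher and lower in the mutants. The dashed line marks the 98 calls with all 15 libraries; the counts run between 26, without Adamts16+/H355Q library 3, and 289, without WT library 7.

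Among matrix and fibroblast genes, Fmo2, Fndc1, Sparcl1, Adamtsl4, Col14a1 and Col6a2 fell with both alleles together, and Ccn2 rose. Fmo2, which encodes a flavin-containing monooxygenase and was on the list of fibroblast markers, lies on chromosome 1 from 162874317 to 162898726 (GRCm38). It was at 1.79, 1.67, 2.05 and 1.57 FPKM in Adamts16+/- libraries 1 to 4. Adamts16+/H355Q libraries 1 to 4 held 2.39, 2.31, 1.89 and 1.37 FPKM. WT libraries held 2.79 to 4.14 FPKM (median 3.86). Every mutant library lay below every WT library. It fell by 0.78 ± 0.11 on the log2 scale (SE; limma adjusted p = 0.00516), and the alleles did not differ detectably (difference -0.12, 95% limits -0.42 to 0.19). Fmo2 was the 1 called member of the 19 tested epicardium and fibroblast markers (5.26%, where 0.646% of all genes were called). The mean log2 level of this list was 3.79 to 4.02 in Adamts16+/-, 3.89 to 3.95 in Adamts16+/H355Q and 3.80 to 4.52 in WT. The part of this marker level in the change of Fmo2 was not tested.

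Fndc1, a protein with fibronectin type III domains, showed the same arrangement. It was at 1.95, 2.28, 1.98 and 1.91 FPKM in Adamts16+/- libraries, at 2.06, 2.59, 1.79 and 1.51 FPKM in Adamts16+/H355Q libraries, and at 2.88 to 4.62 FPKM in WT (median 3.78). The 2 sides did not overlap, and it fell by 0.75 ± 0.11 on the log2 scale (SE; limma adjusted p = 0.00595). The estimates for the alleles were close, -0.73 for Adamts16+/- and -0.78 for Adamts16+/H355Q. Adamtsl4, an ADAMTS-like protein without a protease domain that binds fibrillin microfibrils, was at 1.58, 1.58, 1.66 and 1.68 FPKM in Adamts16+/- libraries, at 1.24, 1.56, 1.43 and 1.36 FPKM in Adamts16+/H355Q libraries, and at 1.78 to 2.27 FPKM in WT (median 2.25). It too had no overlap and fell by 0.39 ± 0.06 (log2, SE; limma adjusted p = 0.00599). Of the 20 tested genes of the ADAMTS family list Adamtsl4 alone was called (5%, where 0.646% of all genes were called), and the list median was -0.05.

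Sparcl1, which encodes the matricellular protein hevin, was among the most highly expressed of the called matrix genes. It was at 37.9, 41.4, 30.6 and 31 FPKM in Adamts16+/- libraries, at 42.8, 61.3, 35.8 and 34.6 FPKM in Adamts16+/H355Q libraries, and at 58.9 to 69.1 FPKM in WT (median 62). Adamts16+/H355Q library 2 lay inside the WT range and the other 7 mutant libraries lay below it. Sparcl1 fell by 0.70 ± 0.11 (log2, SE; limma adjusted p = 0.00881). For Sparcl1, Adamts16+/- gave -0.84, and Adamts16+/H355Q on its own gave -0.56 and was not called (limma adjusted p = 0.0693). Col14a1, a collagen associated with the surface of fibrils, averaged 9.74 ± 1.62 FPKM in the mutants (SD, n = 8) and 13.5 ± 1.69 FPKM in WT (SD, n = 7), and fell by 0.46. Col6a2, a chain of microfibrillar collagen VI, averaged 11.6 ± 2.36 FPKM in the mutants (SD, n = 8) and 16 ± 1.7 FPKM in WT (SD, n = 7), and also fell by 0.46. Their adjusted p-values were 0.0352 and 0.0457 (limma), and both genes overlapped the WT range. Col14a1 gave -0.58 for Adamts16+/- and -0.34 for Adamts16+/H355Q, and Col6a2 gave -0.32 and -0.60 in that order. With each allele on its own, Col14a1 was not called in Adamts16+/H355Q (limma adjusted p = 0.139). Col6a2 was not called in Adamts16+/- (limma adjusted p = 0.152). Of 26 tested collagen chains these 2 were called for both alleles together (7.69%, where 0.646% of all genes were called), both lower, and the list median was -0.06. By allele that median was 0.10 for Adamts16+/- and -0.21 for Adamts16+/H355Q.

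Ccn2, a matricellular growth factor modulator also known as connective tissue growth factor, went the other way. It averaged 19.8 ± 3.62 FPKM in the mutants (SD, n = 8) and 13.6 ± 1.18 FPKM in WT (SD, n = 7). It rose by 0.51 ± 0.10 (log2, SE; limma adjusted p = 0.0376), with 0.65 for Adamts16+/- and 0.38 for Adamts16+/H355Q. The latter was not called on its own (limma adjusted p = 0.144). Adamts16+/H355Q library 2, at 12.2 FPKM, was the mutant library that fell inside the WT range of 12.1 to 15.6 FPKM. In all, 3 of 33 tested matrix glycoprotein genes were called (9.09%, where 0.646% of all genes were called), 1 higher and 2 lower. The list median was -0.10, with 0.09 for Adamts16+/- and -0.14 for Adamts16+/H355Q. Fmo2, Fndc1, Adamtsl4 and Sparcl1 kept their calls with each of the 15 libraries left out in turn. Col14a1 kept its call without 6 of the libraries, Col6a2 without 5 and Ccn2 without 3, with adjusted p-values of up to 0.0876, 0.102 and 0.0983 among the rest. All 3 kept it without Adamts16+/H355Q libraries 1 or 2 or WT library 7.

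**Figure D3:**
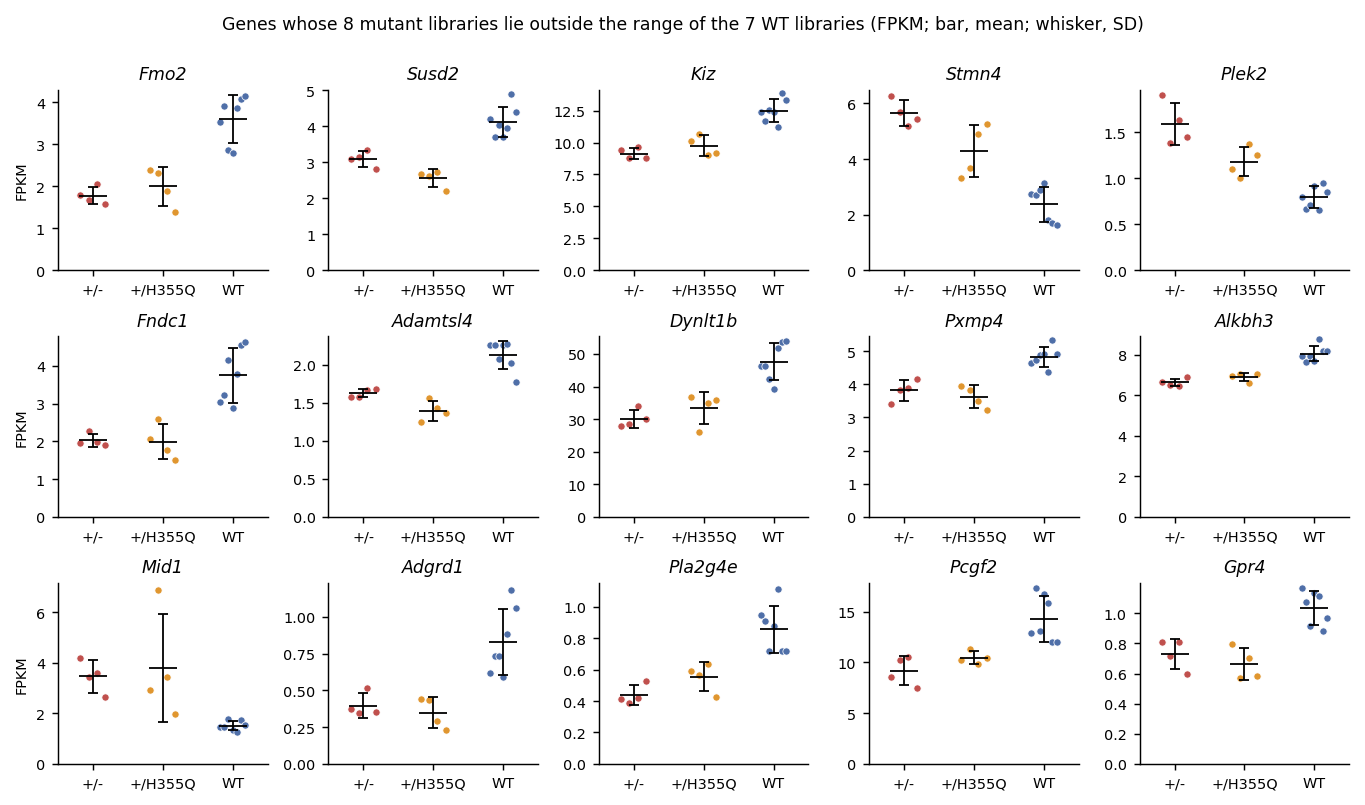
FPKM of 15 called genes in which the 8 mutant libraries lay outside the range of the 7 WT libraries. Points are libraries, bars are means and whiskers are SD, with Adamts16+/- (n = 4) left, Adamts16+/H355Q (n = 4) in the middle and WT (n = 7) right; Stmn4, Plek2 and Mid1 are higher in the mutants and the other 12 genes are lower.

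Fn1, which encodes fibronectin, did not pass the test for both alleles together. It was at 131, 138, 119 and 117 FPKM in Adamts16+/- libraries, at 62.4, 59.8, 78.7 and 79.3 FPKM in Adamts16+/H355Q libraries, and at 57.1 to 113 FPKM in WT (median 108). The Adamts16+/- libraries lay above every WT library and the Adamts16+/H355Q libraries within the WT range. WT was itself split, with 108 to 113 FPKM in libraries 1 to 4 and 74.7, 62.9 and 57.1 FPKM in libraries 5 to 7. The log2 difference of both alleles together was 0.10 ± 0.15 (SE; limma adjusted p = 0.828), and the alleles differed by 0.85 (Adamts16+/- minus Adamts16+/H355Q; limma adjusted p = 0.0238). The part of the WT split in that allele difference was not tested. Sox9, a transcription factor of valve mesenchyme, gave 0.26 ± 0.11 for both alleles (limma adjusted p = 0.324), with 0.59 for Adamts16+/- and -0.06 for Adamts16+/H355Q. Tbx5, a T-box factor of the developing heart, gave -0.26 ± 0.08 (limma adjusted p = 0.144), with 0.11 for Adamts16+/- and -0.63 for Adamts16+/H355Q. Creb3l1, a transcription factor of collagen-secreting cells, gave -0.29 ± 0.09 (limma adjusted p = 0.171), with 0.06 and -0.64 for the 2 alleles in that order. The allele difference itself passed in these 3 genes, at 0.65 for Sox9 (limma adjusted p = 0.0232), 0.74 for Tbx5 (limma adjusted p = 0.00807) and 0.70 for Creb3l1 (limma adjusted p = 0.0102). Without WT libraries 1 to 4, Fn1 was called higher (0.53, adjusted p = 0.0246), and without WT libraries 5 to 7, Tbx5 was called lower (-0.38, adjusted p = 0.0133).

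In the muscle lists the called genes were Myom2 and Casq2, which fell, and Nppb, which rose. Myom2, a myomesin that cross-links thick filaments at the M-band, was at 2.07, 1.98, 2.31 and 2.5 FPKM in Adamts16+/- libraries, at 5.16, 5.97, 2.51 and 2.13 FPKM in Adamts16+/H355Q libraries, and at 4.28 to 9.53 FPKM in WT (median 6.66). Adamts16+/H355Q libraries 1 and 2 lay inside the WT range and the other 6 mutant libraries below it. Myom2 fell by 1.07 ± 0.19 (log2, SE; limma adjusted p = 0.0212). Adamts16+/- gave -1.37, and Adamts16+/H355Q on its own gave -0.76 and was not called (limma adjusted p = 0.122). Casq2, cardiac calsequestrin, which stores calcium in the sarcoplasmic reticulum, was at 115, 101, 104 and 122 FPKM in Adamts16+/- libraries, at 185, 190, 129 and 121 FPKM in Adamts16+/H355Q libraries, and at 171 to 264 FPKM in WT (median 203). It showed the same split of the Adamts16+/H355Q libraries and fell by 0.67 ± 0.12 (log2, SE; limma adjusted p = 0.0167). For Casq2, Adamts16+/- gave -0.91, and Adamts16+/H355Q on its own gave -0.43 and was not called (limma adjusted p = 0.139).

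Nppb, which encodes the precursor of brain natriuretic peptide, was higher. It was at 65.3, 60.8, 79.3 and 82.9 FPKM in Adamts16+/- libraries, at 67.7, 47.3, 66 and 75.9 FPKM in Adamts16+/H355Q libraries, and at 38.1 to 53.4 FPKM in WT (median 45.9). Adamts16+/H355Q library 2 lay inside the WT range and the other 7 mutant libraries above it, and Nppb rose by 0.54 ± 0.10 (log2, SE; limma adjusted p = 0.0271). For Nppb, Adamts16+/- gave 0.63, and Adamts16+/H355Q on its own gave 0.46 and was not called (limma adjusted p = 0.0933). Each of these muscle lists held 1 called gene, where 0.646% of all genes were called: Myom2 among 25 tested sarcomere genes (median -0.07), Casq2 among 26 calcium handling and ion channel genes (median -0.09) and Nppb among 15 cardiomyocyte markers (median -0.05, and 0.00 with TPM scaling). Casq2 lost its call without Adamts16+/H355Q library 3 (adjusted p = 0.051). Myom2 lost it without Adamts16+/- library 1, Adamts16+/H355Q library 3 or WT library 5 or 6 (adjusted p of at most 0.0578). Nppb lost it without 7 of the libraries, with adjusted p-values of up to 0.0678.

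Fabp4, Gpihbp1, Ptgds, Cd300lg, Gpr4, Depp1 and Carns1 fell with both alleles together. Fabp4, a fatty acid binding protein of capillary endothelium and fat cells, was at 9.79, 9.83, 12 and 10.5 FPKM in Adamts16+/- libraries, at 28, 34.5, 16.7 and 17.4 FPKM in Adamts16+/H355Q libraries, and at 21 to 32.8 FPKM in WT (median 24.2). Adamts16+/H355Q libraries 1 and 2 were within or above the WT range and the other 6 mutant libraries below it. The mean of both alleles fell by 0.71 ± 0.15 (log2, SE; limma adjusted p = 0.0438), made up of -1.26 for Adamts16+/- and -0.17 for Adamts16+/H355Q, and this allele difference passed the test (-1.10, limma adjusted p = 0.0111). Gpihbp1, which anchors lipoprotein lipase on capillary endothelium, averaged 2.1 ± 1.04 FPKM in the mutants (SD, n = 8) and 4 ± 1.23 FPKM in WT (SD, n = 7). It fell by 0.83 (limma adjusted p = 0.0444), with -1.18 for Adamts16+/- and -0.48 for Adamts16+/H355Q (limma adjusted p = 0.248 for the latter). Fabp4 and Gpihbp1 were the 2 called genes among 30 tested fatty acid genes (6.67%, where 0.646% of all genes were called). The list median was -0.14 for both alleles together and -0.01 for Adamts16+/H355Q. Ptgds, which makes prostaglandin D2, was at 2.53 to 2.68 FPKM in Adamts16+/- libraries, at 11.4, 11.5, 4.09 and 3.24 FPKM in Adamts16+/H355Q libraries, and at 6.64 to 16.8 FPKM in WT (median 8.84). It fell by 1.22 ± 0.26 (log2, SE; limma adjusted p = 0.0474), more in Adamts16+/- than in Adamts16+/H355Q (difference -1.17, limma adjusted p = 0.0492). Adamts16+/- gave -1.81, and Adamts16+/H355Q on its own gave -0.63 and was not called (limma adjusted p = 0.298).

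Cd300lg, a receptor of capillary endothelium, was at 1.12, 1.04, 1.11 and 1.07 FPKM in Adamts16+/- libraries, at 1.44, 1.65, 1.07 and 0.977 FPKM in Adamts16+/H355Q libraries, and at 1.58 to 2.66 FPKM in WT (median 2.25). Adamts16+/H355Q library 2 overlapped WT, and the gene fell by 0.67 ± 0.10 (log2, SE; limma adjusted p = 0.00881). Gpr4, a proton-sensing receptor of endothelium, had no overlap, with 0.572 to 0.809 FPKM in the mutants (median 0.709) and 0.881 to 1.17 FPKM in WT (median 1.07), and fell by 0.36 (limma adjusted p = 0.032). Depp1, a target of FOXO transcription factors, and Carns1, carnosine synthase, fell by 0.87 and 0.71 (limma adjusted p = 0.0271 for each). In both the allele difference passed the test, at -0.94 for Depp1 (limma adjusted p = 0.022) and -0.72 for Carns1 (limma adjusted p = 0.0273). Adamts16+/H355Q on its own gave -0.40 and -0.35 in that order, and neither was called (limma adjusted p = 0.298 and 0.265). None of the 20 endothelium markers was called, and their mean log2 level was 3.37 to 3.42 in Adamts16+/-, 3.14 to 3.30 in Adamts16+/H355Q and 3.24 to 3.56 in WT. Cd300lg kept its call with each library left out. Fabp4 kept it without 5 of the 15 libraries, Gpihbp1 and Ptgds without 4 each, Gpr4 without 6, and Depp1 and Carns1 without 7 each, with adjusted p-values of at most 0.112 among the rest.

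Hbb-bh0, Tal1, Plek2, Kel, Ermap and Slc6a9, genes known from the red-cell lineage, rose with both alleles together. Kel and Ermap were the 2 called genes of the 18 tested erythroid markers (11.1%, where 0.646% of all genes were called), whose median was 0.08 for both alleles together and -0.04 for Adamts16+/H355Q. Hbb-bh0, annotated as an unprocessed globin pseudogene, was at 6.33, 4.19, 6.17 and 8.33 FPKM in Adamts16+/- libraries, at 8.72, 1.59, 12 and 8.44 FPKM in Adamts16+/H355Q libraries, and at 0.298 to 2.9 FPKM in WT (median 1.32). It rose by 2.01 ± 0.38 (log2, SE; limma adjusted p = 0.0271), with Adamts16+/H355Q library 2 inside the WT range. The embryonic globin gene Hbb-bh1, its neighbour on chromosome 7, was at 47.3 to 56.8 FPKM in Adamts16+/- libraries, at 26.9, 7.54, 45.4 and 35.1 FPKM in Adamts16+/H355Q libraries, and at 2.76 to 20.2 FPKM in WT (median 11.8). Its difference of 2.0 ± 0.45 did not pass (limma adjusted p = 0.0564). Globin genes are similar in sequence, so reads may be shared between them and both values are uncertain to that extent.

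Tal1, a transcription factor of blood and endocardial progenitors, was at 4.43, 5.49, 6.64 and 5.45 FPKM in Adamts16+/- libraries, at 4.09, 2.92, 4.55 and 4.52 FPKM in Adamts16+/H355Q libraries, and at 1.74 to 3.38 FPKM in WT (median 2.99). Adamts16+/H355Q library 2 overlapped WT and the other 7 mutant libraries lay above it. Tal1 rose by 0.67 ± 0.12 (log2, SE; limma adjusted p = 0.0252). For Tal1, Adamts16+/- gave 0.88, and Adamts16+/H355Q on its own gave 0.47 and was not called (limma adjusted p = 0.139). Plek2, a pleckstrin family protein of red-cell precursors, had no overlap, with 1.9, 1.39, 1.63 and 1.45 FPKM in Adamts16+/- libraries, 1.1, 1.0, 1.37 and 1.25 FPKM in Adamts16+/H355Q libraries and 0.655 to 0.95 FPKM in WT (median 0.8). It rose by 0.54 ± 0.08 (log2, SE; limma adjusted p = 0.00595). Kel and Ermap, which encode blood group proteins of the red-cell membrane, and Slc6a9, a glycine transporter, rose by 0.64, 0.58 and 0.52 (limma adjusted p = 0.0277, 0.0167 and 0.0321). In these 3 genes Adamts16+/H355Q set against WT on its own gave 0.15, 0.14 and 0.29 in that order, and none was called (limma adjusted p = 0.619, 0.547 and 0.24). The change was larger in Adamts16+/-, with allele differences of 0.99 for Kel (limma adjusted p = 0.00911), 0.88 for Ermap (limma adjusted p = 0.00807) and 0.47 for Slc6a9 (limma adjusted p = 0.0441). Kel was at 3.42 to 5.1 FPKM in Adamts16+/- libraries, at 1.41 to 2.75 FPKM in Adamts16+/H355Q libraries and at 1.51 to 2.57 FPKM in WT. It overlaps the gene model Gm37527 on the same strand, so their reads may be shared.

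The mean log2 level of the erythroid marker list was 5.37 to 5.79 in Adamts16+/-, 4.84 to 5.38 in Adamts16+/H355Q and 4.64 to 5.45 in WT. With that level as a covariate, Hbb-bh0 gave 1.31, Tal1 0.63, Plek2 0.46 and Kel 0.39, and none of these 4 was called. Kel is itself on that list, so its value with the covariate is in part fixed by construction. The list level also reached higher in Adamts16+/- than in WT, so the covariate shares variation with genotype and a lost call does not measure blood. How far the amount of blood in each sample moved these genes was not tested. Plek2 kept its call with each library left out. Ermap lost it without Adamts16+/H355Q library 3 (adjusted p = 0.051), Tal1 without 5 of the libraries, Hbb-bh0 without 7, Slc6a9 without 8 and Kel without 9, with adjusted p-values of up to 0.0866.

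Promoter sequence was sought for 6 of the genes above, of which Hbb-bh1 was not called and had no window to examine. The motif AGATAA, a form bound by GATA factors, was searched on both strands (as TTATCT on the other) in the 250 bases before each annotated RefSeq start (GRCm38.p6). Other forms of the GATA site were not searched, so a window without AGATAA may still hold one. Of the red-cell genes Tal1, Plek2, Kel, Ermap, Slc6a9 and Hbb-bh1, 5 matched the promoter table, with 8 start sites, and 2 of the 8 windows held the motif, against 9.99% of all 32851 windows. The motif-bearing windows are shown for Kel, at chr6:41704326-41704575 on the minus strand, and Tal1, at chr4:115056176-115056425 on the plus strand, with the motif in capitals.
Kel: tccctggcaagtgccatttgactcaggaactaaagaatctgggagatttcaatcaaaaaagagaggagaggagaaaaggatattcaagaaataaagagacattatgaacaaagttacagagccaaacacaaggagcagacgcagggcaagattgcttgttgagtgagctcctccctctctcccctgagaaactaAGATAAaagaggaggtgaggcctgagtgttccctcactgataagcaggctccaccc
Tal1: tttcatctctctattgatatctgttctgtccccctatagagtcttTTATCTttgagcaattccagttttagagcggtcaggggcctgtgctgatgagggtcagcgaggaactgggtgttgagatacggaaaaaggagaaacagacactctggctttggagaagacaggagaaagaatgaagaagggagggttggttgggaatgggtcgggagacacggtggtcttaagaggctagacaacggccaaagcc
These matches describe the windows and do not show binding.

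**Figure D4:**
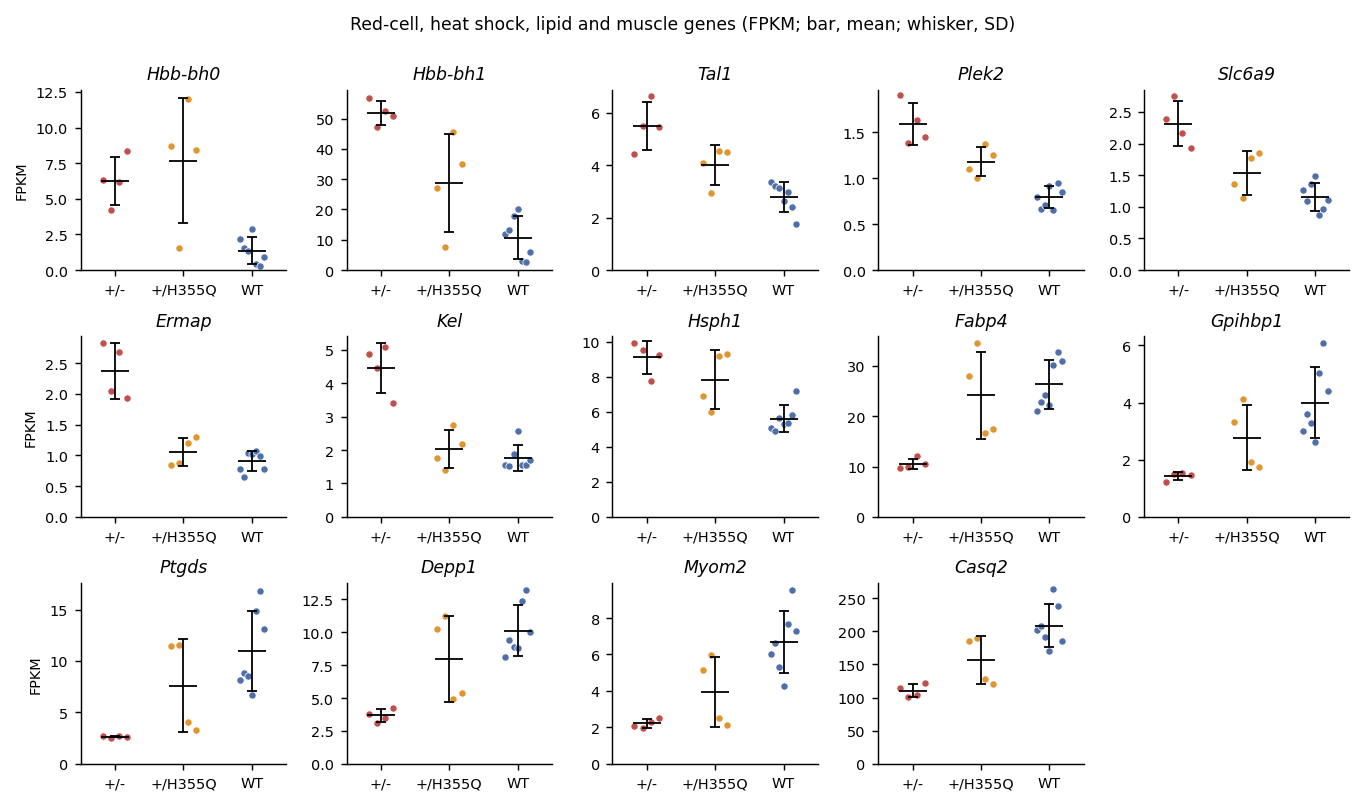
FPKM of red-cell, heat shock, lipid and muscle genes in each library, with Adamts16+/- (n = 4) left, Adamts16+/H355Q (n = 4) in the middle and WT (n = 7) right. Bars are means and whiskers are SD. In the lower genes Fabp4, Gpihbp1, Ptgds, Depp1, Myom2 and Casq2, the 4 Adamts16+/- libraries lie below WT, while Adamts16+/H355Q libraries 3 and 4 lie below WT and libraries 1 and 2 lie within the WT range, except Fabp4 in library 2, which lies above it.

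Hsph1, a cytosolic heat shock protein that helps Hsp70 release its clients, rose by 0.55 ± 0.10 (log2, SE; limma adjusted p = 0.0216). Its change was 0.66 for Adamts16+/- and 0.44 for Adamts16+/H355Q, the latter not called on its own (limma adjusted p = 0.0959). It was at 9.91, 9.54, 7.79 and 9.23 FPKM in Adamts16+/- libraries, at 6.9, 5.99, 9.19 and 9.29 FPKM in Adamts16+/H355Q libraries, and at 4.89 to 7.2 FPKM in WT (median 5.37). It was the 1 called gene of 26 tested unfolded protein response and heat shock genes (3.85%, where 0.646% of all genes were called). The median of this list was 0.20. Cxcl12, a chemokine that guides cells to the coronary vessels, averaged 11.1 ± 2.12 FPKM in the mutants (SD, n = 8) and 7.66 ± 0.702 FPKM in WT (SD, n = 7), and rose by 0.50 (limma adjusted p = 0.0438), with 0.48 for Adamts16+/- and 0.51 for Adamts16+/H355Q. Hmgn2, a nucleosome-binding protein of the high mobility group, was at 49.1 to 53.3 FPKM in Adamts16+/- libraries, at 81.2 to 93.9 FPKM in Adamts16+/H355Q libraries and at 39 to 63.6 FPKM in WT (median 46.8). The mean of both alleles rose by 0.48 (limma adjusted p = 0.0198), made up of 0.10 for Adamts16+/- and 0.86 for Adamts16+/H355Q, and the alleles differed by -0.76 (limma adjusted p = 0.00807). Hmgn2 lost its call without Adamts16+/H355Q library 3 or WT library 5 (adjusted p = 0.0546 and 0.0544), Hsph1 without 6 libraries (up to 0.0591) and Cxcl12 without 10 (up to 0.102).

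The largest called changes were at the distal ends of chromosomes X and Y. There the sex chromosomes share the pseudoautosomal region, through which they pair in male meiosis, and in common laboratory mice Mid1 lies across its boundary. This region was singled out after the values were seen, so its count supports no test. Of 10 tested genes annotated there (GRCm38), 9 were called (90%, where 0.646% of all genes were called), all higher in the mutants. In 7 of the 10 the mutant and WT libraries did not overlap, a property of 0.283% of all genes. The called genes there made up 7 of the 9 genes that were higher at 2-fold or more. Their X and Y copies are close in sequence, and G530011O06Rik, Gm15726 and Gm15247 are annotated antisense to Mid1. Strand use in counting is not given in the sources used here, so reads may be shared among them and the genes are not independent. Strain is not given in the labels, and an effect of the Adamts16 alleles on these genes cannot be told apart from a different strain origin of the sex chromosomes in mutant and WT embryos.

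Mid1, a microtubule-associated ubiquitin ligase on chromosome X from 169685199 to 170005736, was at 4.21, 3.42, 3.58 and 2.64 FPKM in Adamts16+/- libraries, at 2.93, 6.88, 3.43 and 1.97 FPKM in Adamts16+/H355Q libraries, and at 1.27 to 1.77 FPKM in WT (median 1.47). It rose by 0.98 ± 0.17 (log2, SE; limma adjusted p = 0.0193), with 0.97 for Adamts16+/- and 0.98 for Adamts16+/H355Q. Gm21887, annotated further towards the end of X, was at 35.1, 40.9, 17.7 and 23.9 FPKM in Adamts16+/- libraries, at 27.8, 30.3, 23.4 and 23.9 FPKM in Adamts16+/H355Q libraries, and at 0.0341 to 8.57 FPKM in WT (median 5.97). It rose by 2.51 ± 0.48 (log2, SE; limma adjusted p = 0.0299). WT library 6 held the 0.0341 FPKM, and the other 6 WT libraries held at least 5.33 FPKM.

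Gm47283, annotated on chromosome Y from 90784738 to 90816464, was at 11.2, 11.1, 6.21 and 11.6 FPKM in Adamts16+/- libraries, at 9.91, 17.8, 10.9 and 10.5 FPKM in Adamts16+/H355Q libraries, and at 0.018 to 3.12 FPKM in WT (median 1.74). Its highest value, 17.8 FPKM, came from Adamts16+/H355Q library 2, where the Y-linked gene Ddx3y was listed at 0, so signal at this annotated Y gene was present without Ddx3y. Gm47283 rose by 2.44 ± 0.34 (log2, SE; limma adjusted p = 0.00534). The other called genes there, G530011O06Rik, Gm15726, Gm15247, Gm21860, Gm21742 and Gm21748, rose by 0.86 to 1.47. Mid1-ps1 was at 2.84 to 11.1 FPKM in the mutants (median 4.47) and at 0 to 3.22 FPKM in WT (median 1.69), and its difference of 1.92 did not pass (limma adjusted p = 0.0748). Mid1 lost its call without Adamts16+/H355Q library 3 (adjusted p = 0.051) or WT library 5 (adjusted p = 0.0543). With chromosomes X and Y left out of the test, 65 genes were called, all of them among the 98.

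**Figure D5:**
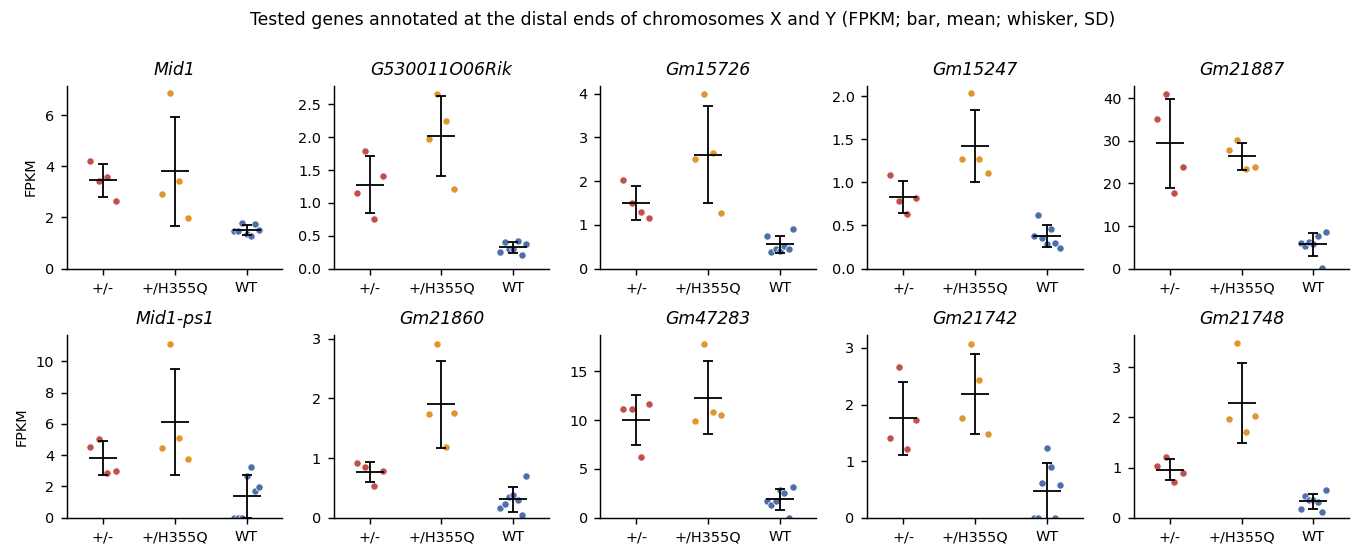
FPKM of the 10 tested genes annotated at the distal ends of chromosomes X and Y, with Adamts16+/- (n = 4) left, Adamts16+/H355Q (n = 4) in the middle and WT (n = 7) right. Points are libraries, bars are means and whiskers are SD, cut at 0. Gm21887 was at 17.7 to 40.9 FPKM in the mutants and at most 8.57 FPKM in WT.

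Stmn4, a stathmin that binds tubulin and is found mainly in neurons, was higher in every mutant library. It was at 6.27, 5.69, 5.19 and 5.44 FPKM in Adamts16+/- libraries, at 3.32, 3.67, 4.92 and 5.27 FPKM in Adamts16+/H355Q libraries, and at 1.63 to 3.12 FPKM in WT (median 2.69). It rose by 0.94 ± 0.13 (log2, SE; limma adjusted p = 0.00534). It was the 1 called gene of 8 tested neuron markers (12.5%, where 0.646% of all genes were called). The mean log2 level of this list was 0.30 to 0.70 in Adamts16+/-, 0.16 to 2.12 in Adamts16+/H355Q and 0.10 to 0.68 in WT. These levels overlapped between the groups, and their part in the change of Stmn4 was not tested.

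The remaining genes with no overlap came from several cell processes, and most of those named here were lower in the mutants. Over all genes with no overlap the direction reversed with TPM scaling (22 higher, 12 lower). Kiz, a centrosomal protein, was at 8.76 to 10.7 FPKM in the mutants (median 9.27) and at 11.2 to 13.9 FPKM in WT (median 12.4), and fell by 0.39 ± 0.05 (log2, SE; limma adjusted p = 0.00534). Susd2, a sushi domain membrane protein, was at 2.2 to 3.35 FPKM in the mutants (median 2.77) and at 3.69 to 4.89 FPKM in WT (median 4.03), and fell by 0.48 ± 0.06 (log2, SE; limma adjusted p = 0.00516). Dynlt1b, a dynein light chain with a near-identical neighbour Dynlt1c that was also called lower, was at 26.1 to 36.8 FPKM in the mutants (median 31.9) and at 39.3 to 54 FPKM in WT (median 46.3). Its fall of 0.58 is uncertain as to which copy the reads came from. Pcgf2, a Polycomb group protein, fell by 0.51 and Pxmp4, a peroxisomal membrane protein, fell by 0.34. The adhesion receptor Adgrd1 fell by 0.60, the phospholipase Pla2g4e by 0.45 and the nucleic acid demethylase Alkbh3 by 0.23.

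Among the higher genes, the kinase Pim1 also had no overlap, at 4.66 to 5.87 FPKM in the mutants (median 5.09) and at 3.38 to 4.53 FPKM in WT (median 3.77). It rose by 0.38, with 0.39 for Adamts16+/- and 0.36 for Adamts16+/H355Q (limma adjusted p = 0.0146). Tmem267 rose by 0.36, again with no overlap. Scrn1 and Rassf5, a RAS effector, rose by 0.39 and 0.34. Lmntd1, with a lamin tail domain, fell by 0.43 and overlapped WT. Kiz, Susd2, Dynlt1b, Pxmp4, Lmntd1, Pim1, Tmem267, Stmn4 and Pla2g4e kept their calls with each library left out. Without Adamts16+/H355Q library 3, Alkbh3, Adgrd1, Scrn1, Rassf5 and Pcgf2 lost theirs (adjusted p of 0.051 to 0.0678), and Adgrd1 lost it without WT library 5 (0.0543), Pcgf2 without 5 other libraries and Rassf5 without 3 others. Slc6a9, Ccn2, Scrn1, Rassf5, Depp1, Carns1, Casq2, Lmntd1, Alkbh3 and Adgrd1 each overlap another tested gene, so their reads may in part be shared.

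No member was called in the other 30 lists of pathways and cell types, among them the elastic fibre, proteoglycan, collagen cross-linking, matrix metalloprotease, integrin, TGF-beta and BMP, Notch, Wnt, MAPK feedback, cardiac transcription factor, valve mesenchyme and aortic valve disease genes. Their median log2 differences included those of the valve mesenchyme markers (0.13 over 15 genes), the TGF-beta and BMP genes (0.08 over 32), the Notch genes (-0.01 over 19), the elastic fibre genes (-0.04 over 17) and the aortic valve disease genes (0.02 over 23). Those of the Notch and elastic fibre genes were positive with TPM scaling, and that of the aortic valve disease genes was negative with quantile normalization. By allele, the TGF-beta and BMP, Notch, elastic fibre and aortic valve disease medians were positive for Adamts16+/- and negative for Adamts16+/H355Q. With 0.646% of all genes called, a list of this size holds under 1 called gene at the background rate.

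Among these 30 lists, markers of other tissues had the medians furthest from 0. The median was 0.54 over 7 tested skeletal muscle markers, 0.44 over 4 thymus markers, -0.45 over 7 liver markers and -0.18 over 13 macrophage and leukocyte markers, with the same signs under the 3 other scalings. By allele, the skeletal muscle median was 0.51 for Adamts16+/- and -0.14 for Adamts16+/H355Q, so its sign was not common to both. In that order it was 0.17 and 0.73 for thymus, -0.47 and -0.16 for liver and -0.18 and -0.14 for macrophage and leukocyte markers. The mean log2 level of the skeletal muscle markers was 0.72 to 1.75 in Adamts16+/-, 0.66 to 0.94 in Adamts16+/H355Q and 0.71 to 1.10 in WT, and 3 of them were called with Adamts16+/- set against WT on its own. That of the liver markers was 0.48 to 1.08 in Adamts16+/-, 0.60 to 1.53 in Adamts16+/H355Q and 0.27 to 2.0 in WT. That of the thymus markers was -0.73 to 0.08 in Adamts16+/-, -0.74 to 0.97 in Adamts16+/H355Q and -0.75 to 1.11 in WT. These levels overlapped between the groups, and their part in the changes above was not tested.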

How the data were processed

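RNA was measured in whole hearts at E14.5 from 8 mutant and 7 WT embryonic samples; per the labels' protocols, TRIzol was used for total RNA and the VAHTS Universal V6 kit for library construction. Tools in the submitters' processing notes are HISAT2, HTSeq, fastp, DESeq2 and R 3.2.0, with no roles stated. The authors deposited FPKM for 55335 gene identifiers; how FPKM were computed, on which build and annotation and with what strand setting is not given in the sources used here. Symbols for 55154 identifiers and coordinates came from GENCODE vM21 (GRCm38), matched by identifier. FPKM are not counts, and 60.8% to 67.2% of low values were whole multiples of the implied step within 0.1 step, too few to recover whole reads. Pairwise library correlations were 0.951 to 0.986 and no 2 libraries were identical.

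Genotype groups came from the labels. For the 15172 genes averaging 0.5 FPKM or more, log2(FPKM + 0.5) was fitted with limma 3.58.1 (R 4.3.3) with a variance trend, 3 genotype groups and no covariate. The contrast was the unweighted mean of both alleles minus WT, with Benjamini-Hochberg adjustment over all genes and a call under 0.05. This scale understates changes of low genes. Adamts16, below the filter, had a two-sided exact permutation test. No overlap was counted on FPKM with no test. On simulated data of 15172 genes for this contrast, 83% of 1.5-fold and 95% of 2-fold changes were recovered and 9 unchanged genes were called. The changed genes were drawn from those averaging 1 FPKM or more, so recovery at 0.5 to 1 FPKM was not measured. Genes were simulated independently, so shared library effects were left out.

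Genes were named by a rule that left out numbered gene models, Rik, clone and pseudogene (-ps) symbols: up to 12 called per direction by fold averaging 1 FPKM or more, 10 by p, 15 with no overlap, 3 per list, and 9 carried over from earlier work. The genes at the ends of X and Y other than Mid1 were named after their values were seen. A gene that the rule also picked is not reported here. The members, the 42 lists and the rule were chosen with earlier results of these data known. Alternatives covered the pseudocount, filter, scaling, variance options, covariates, a replicate block and leaving out libraries; those restricted to protein-coding genes or without chromosomes X and Y were chosen after seeing the data.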

Additional observations from a re-analysis of the deposited data

Results flagged for a closer look

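In 7 of 141 groups of 4 or 7 libraries examined (4.96%, where chance gives about 1 in 20), 1 library stood apart from the rest of its group for a named gene. Dynlt1b was at 26.1 FPKM in Adamts16+/H355Q library 2, against 35 to 36.8 FPKM in the other 3. Alkbh3 was at 6.62 FPKM in Adamts16+/H355Q library 3, against 6.97 to 7.04 FPKM. Adgrd1 was at 0.519 FPKM in Adamts16+/- library 3, against 0.344 to 0.37 FPKM. Tbx5 was at 17.5 FPKM in Adamts16+/- library 3, against 13.4 to 13.9 FPKM. Adamts16 was at 0.235 FPKM in Adamts16+/- library 2, against 0.0635 to 0.0897 FPKM. Hsph1 was at 7.2 FPKM in WT library 7, against 4.89 to 5.83 FPKM in the other 6, and Kel was at 2.57 FPKM in WT library 4, against 1.51 to 1.89 FPKM.

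In 8 named genes called for both alleles together, the alleles also differed from each other (limma, Adamts16+/- minus Adamts16+/H355Q, log2). The Adamts16+/- mean was further from WT in 7 of them. These were the red-cell genes Ermap (0.88, adjusted p = 0.00807), Kel (0.99, adjusted p = 0.00911) and Slc6a9 (0.47, adjusted p = 0.0441), and the lower genes Carns1 (-0.72, adjusted p = 0.0273), Depp1 (-0.94, adjusted p = 0.022), Fabp4 (-1.10, adjusted p = 0.0111) and Ptgds (-1.17, adjusted p = 0.0492). Hmgn2 differed the other way (-0.76, adjusted p = 0.00807), with its higher level in Adamts16+/H355Q.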

How the results depend on the processing

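The 98 calls for both alleles together became 34 with no filter on low values (37951 genes tested), 148 with quantile normalization, 813 with array weights, 53 with the mutants as 1 group, 2 with the erythroid covariate, 488 with the first principal component as a covariate, 679 with a replicate block, 1335 without WT libraries 5 to 7 and 732 without WT libraries 1 to 4. The cause was not tested. They became 65 without chromosomes X and Y, which leaves out by construction the 10 called genes on X and the 4 on Y. The rest of that drop was not examined. With 1 library left out the 98 calls ranged from 26 to 289. Pseudocounts of 0.1 and 1, a filter of 1 FPKM, 2 other scalings, no trend, robust variance, the Xist and Ddx3y covariate and protein-coding genes only gave 73 to 117. The 21 calls with an allele difference became 3 with no filter, 239 with array weights, 0 with either the erythroid or the first principal component covariate, 403 with the block, 737 without WT libraries 5 to 7 and 303 without WT libraries 1 to 4, and 5 to 69 with 1 library left out. The first principal component came from these same values and separated the alleles. Loss of allele calls with it as a covariate was thus close to fixed by construction. The 43 genes with no overlap became 438 and 642 without these WT subsets and 45 to 123 with 1 library left out, fewer libraries making overlap rarer by construction. The Adamts16 difference was 0.14 without WT libraries 5 to 7 (exact p = 0.0343) and -0.16 without WT libraries 1 to 4 (exact p = 0.0727), and -0.030 to 0.062 with 1 library left out. Fn1 turned to -0.015 with array weights, -0.086 with the erythroid covariate and -0.23 with the block or without WT libraries 5 to 7, and lay between -0.0023 (WT library 7) and 0.16 with 1 library left out. Of the alternative values of named genes, 1218 kept direction and side of the threshold, 280 lost the call, 11 gained it and 5 reversed.

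Same-numbered libraries did not deviate together (correlations -0.23 to 0.21), so the replicate numbers were not taken to pair samples. The block also removes WT libraries 5 to 7 from the contrast by construction, since no mutant library has their numbers; with it Adamts16 was at 0.14 (limma unadjusted p = 0.0455, against an exact p of 0.859 without it).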

Other observations

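Several called genes on no list were also higher or lower with both alleles together (limma). Aoc3, a vascular amine oxidase, fell by 0.66, Sema7a, a membrane-anchored semaphorin, by 0.65, and Cidea, a lipid droplet protein, by 0.60. Vwf, the von Willebrand factor of endothelium and platelets, fell by 0.33 and Ecm2, a matrix protein, by 0.32. Myzap, a protein of the intercalated disc, fell by 0.32 and Tmem182, a muscle membrane protein, by 0.40. Among the higher genes were Mthfd2 (0.38), a mitochondrial enzyme of folate metabolism, Bnip3 (0.32), a mitophagy receptor, and the phosphatase genes Dusp26 (0.43) and Dusp9 (0.43). Adjusted p-values of these genes lay between 0.0212 (Myzap) and 0.0499 (Tmem182), and they were picked after their values were seen.

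Within Adamts16+/H355Q, the called genes were not evenly placed, a pattern noticed after the values were seen. Of the 56 genes called lower, libraries 1 and 2 both lay above libraries 3 and 4 in 34 (60.7%, against 16.1% of all genes tested), and the reverse held in 0. Of the 42 called higher, libraries 1 and 2 both lay below libraries 3 and 4 in 20 (47.6%, against 24.1% of all genes tested), and the reverse held in 1. Libraries 1 and 2 were both inside the WT range in 14 of the lower and 9 of the higher genes, and libraries 3 and 4 in 0 of either. The call itself favours genes whose libraries lie away from WT, and the labels name no difference among these 4 libraries.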
